A study of Mus musculus with 8 samples.

Results

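The genes examined were 7 CXC chemokine genes, Cxcl1, Cxcl2, Cxcl3, Cxcl9, Cxcl10, Cxcl11 and Cxcl16, which were taken by name from a table of 50615 mouse genes. All 7 had at least 10 counts over the 8 libraries and were tested together with 17625 genes in all. The RNA came from bone marrow-derived macrophages (BMDMs), cells grown from marrow precursors with the growth factor M-CSF, here at 20 ng/ml for 6 days. The study compared BMDMs with and without Ncoa6, a coactivator of nuclear receptors and other transcription factors, at rest and after stimulation.

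All mice were of the C57BL/6 strain and carried a floxed Ncoa6 gene. Ncoa6-sufficient cells had the genotype Ncoa6 fl/fl. Ncoa6-KO cells had the genotype Ncoa6 fl/fl LysM CRE, in which Cre recombinase is made from the lysozyme M (Lyz2) locus of myeloid cells. Because the Ncoa6-sufficient mice carried no Cre, the loss of Ncoa6 and the presence of the Cre allele cannot be told apart. Cells were either kept in medium alone or stimulated in sequence. Stimulation began with 4 h of lipopolysaccharide (LPS, 100 ng/ml), a Toll-like receptor 4 ligand, and went on with 2 h of monosodium urate crystals (MSU, 200 µg/ml), an NLRP3 inflammasome trigger. The design had 4 groups with 2 libraries each, and the mice behind the libraries of a group were different animals per the methods. LPS and MSU were given together or not at all, so their contributions cannot be told apart.

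CXC chemokines are small proteins that direct the migration of leukocytes through G protein-coupled receptors. Cxcl1, Cxcl2 and Cxcl3 are ligands of Cxcr2, the main chemokine receptor of neutrophils, and are classical NF-κB target genes in activated macrophages. Cxcl9, Cxcl10 and Cxcl11 are ligands of Cxcr3 on activated T and NK cells and are induced by interferons, Cxcl9 chiefly by interferon-gamma. Cxcl16 is made as a membrane-bound protein that can be shed, and it is the ligand of Cxcr6.

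The counts of the libraries summed to between 25281955 and 33673552. Normalized counts are the counts scaled to a common effective library size of 29332189. With medium alone, normalized counts of Ncoa6 were 1515 and 1405 in Ncoa6-sufficient and 784 and 622 in Ncoa6-KO libraries. After LPS + MSU, they were 1297 and 1173 against 563 and 526. Ncoa6 was therefore lower in all 4 Ncoa6-KO libraries, by -1.05 ± 0.117 (log2 fold change ± SE, adjusted p = 0.00236) and -1.18 ± 0.124 (adjusted p = 0.00189) in turn, although the gene count also covers the exons that are not floxed. All 9 macrophage markers examined exceeded 50 normalized counts in a group mean. Of the 9 T and NK cell markers, 1 reached a group mean of 50 normalized counts, and Cd3g, Cd8a, Ncr1 and Trac had no count in any library. Of the 11 neutrophil markers, 5 reached a group mean of 50 normalized counts. After LPS + MSU, 5 of the 10 tested were higher in each genotype (edgeR, adjusted p under 0.05), against 24.7% and 25.2% of all genes. The neutrophil markers Ly6g, Elane and Retnlg did not exceed a mean of 3.24 normalized counts in any group. The summed neutrophil list was higher after LPS + MSU, at 3479 to 3998 against 1198 to 1288 normalized counts in Ncoa6-sufficient BMDMs and 1928 to 2670 against 860 to 1062 in Ncoa6-KO BMDMs, and most of it was Csf3r. Other lists moved with the stimulus as well. The endothelial list, with 3 of 6 genes over a group mean of 50 and Emcn at 0 throughout, went from 3440 to 3941 up to 8045 to 9212 in Ncoa6-sufficient BMDMs. Without Ncoa6 it went from 4318 to 5571 up to 6476 to 8642. Kdr and Vwf made up most of this list, and Tek had at most 7.00 normalized counts. The stromal list, with 4 of 7 genes over that mean, went from 391 to 436 up to 917 to 967 in Ncoa6-sufficient BMDMs. The Ncoa6-KO libraries were far apart on the stromal list, at 143 and 471 with medium alone and 353 and 841 after LPS + MSU. The dendritic cell list, with 2 of 7 genes over that mean, went from at most 25.7 to at least 167 in both genotypes. The T and NK cell list did not exceed 111 in a library, nor the B cell list 50.3. Between genotypes, 1 gene of the lists other than that of macrophages was called, Vwf, which was higher in stimulated Ncoa6-KO BMDMs (0.71, adjusted p = 0.0446). In Ncoa6-KO BMDMs, the macrophage markers Lyz2 (-1.01, adjusted p = 0.0172), Fcgr1 (-2.05, adjusted p = 0.0115) and Cd14 (-0.78, adjusted p = 0.0298) were lower with medium alone, and Lyz2 (-0.95, adjusted p = 0.0142), Fcgr1 (-1.38, adjusted p = 0.0353) and Itgam (-0.51, adjusted p = 0.0412) were lower after LPS + MSU. The summed macrophage list ranged from 266596 to 307704 normalized counts in Ncoa6-KO BMDMs against 408689 to 475495 in Ncoa6-sufficient BMDMs with medium alone, and from 379579 to 407634 against 523050 to 591461 after LPS + MSU. Because Cre is made from the Lyz2 locus, the Lyz2 difference cannot be told apart from the presence of the Cre allele. The same holds for the part of Lyz2 in the summed macrophage list. The part of these lists in the chemokine differences was not tested, and in bulk samples fewer cells of a type and less RNA per cell cannot be told apart.

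Of the 7 genes, 6 lie on chromosome 5 of GRCm38 in a pair of clusters. Cxcl3 (ENSMUSG00000029379, chr5:90786103-90789600), Cxcl1 (ENSMUSG00000029380, chr5:90891241-90893115) and Cxcl2 (ENSMUSG00000058427, chr5:90903871-90905938) are on the plus strand within 119.8 kb. Cxcl9 (ENSMUSG00000029417, chr5:92321347-92328079), Cxcl10 (ENSMUSG00000034855, chr5:92346638-92348889) and Cxcl11 (ENSMUSG00000060183, chr5:92359544-92365485) are on the minus strand within 44.1 kb, 1415.4 kb from the first cluster. Cxcl16 (ENSMUSG00000018920, chr11:70453983-70459984) is on the minus strand of chromosome 11. Cxcl11 is annotated as a polymorphic pseudogene in this reference genome, so its counts are of a transcript and do not bear on a protein.

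Promoter sequence from RefSeq (GRCm38.p6) was held for 5 of the 7 genes. The 250 bases before the transcription start are shown because these genes rose together after LPS + MSU, and the motifs searched for are printed in capitals. The capitals mark the stricter κB motif (GGG, any 2 bases, TT, any base and CC), the interferon-stimulated response element (ISRE: GAAA, any 2 bases and GAAA), the AP-1 motif TGANTCA and the TATA box TATAAA, each on either strand. Each sequence runs 5′ to 3′ along the strand of its gene.

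Cxcl1, chr5:90890995-90891244, plus strand: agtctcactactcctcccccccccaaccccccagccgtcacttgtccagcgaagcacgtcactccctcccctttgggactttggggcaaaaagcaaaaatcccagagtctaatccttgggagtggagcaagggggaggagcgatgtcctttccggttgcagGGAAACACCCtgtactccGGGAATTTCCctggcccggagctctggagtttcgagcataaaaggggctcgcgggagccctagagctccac

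Cxcl2, chr5:90903649-90903898, plus strand: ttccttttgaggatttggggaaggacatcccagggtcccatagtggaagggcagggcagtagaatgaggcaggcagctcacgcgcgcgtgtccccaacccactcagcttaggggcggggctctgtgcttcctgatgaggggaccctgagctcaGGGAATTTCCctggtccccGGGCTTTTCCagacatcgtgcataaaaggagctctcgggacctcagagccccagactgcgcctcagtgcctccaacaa

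Cxcl3, chr5:90785851-90786100, plus strand: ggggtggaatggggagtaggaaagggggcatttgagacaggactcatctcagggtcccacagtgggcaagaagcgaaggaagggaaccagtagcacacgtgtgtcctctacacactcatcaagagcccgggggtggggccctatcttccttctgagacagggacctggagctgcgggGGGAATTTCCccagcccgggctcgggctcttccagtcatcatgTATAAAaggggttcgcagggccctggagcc

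Cxcl9, chr5:92328080-92328329, minus strand: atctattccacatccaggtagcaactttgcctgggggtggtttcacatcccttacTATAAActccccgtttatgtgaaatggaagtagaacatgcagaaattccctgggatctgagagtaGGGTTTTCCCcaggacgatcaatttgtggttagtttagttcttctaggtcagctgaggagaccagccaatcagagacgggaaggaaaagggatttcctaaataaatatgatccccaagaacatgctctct

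Cxcl10, chr5:92348890-92349139, minus strand: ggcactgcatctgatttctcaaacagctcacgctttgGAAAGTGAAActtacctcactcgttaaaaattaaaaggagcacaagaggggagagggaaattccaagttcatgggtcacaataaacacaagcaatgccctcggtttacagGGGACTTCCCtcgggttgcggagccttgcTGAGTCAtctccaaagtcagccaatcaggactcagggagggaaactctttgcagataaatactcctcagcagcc

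The stricter κB motif occurred in all 5 windows of 300 bases (250 before and 50 after the start) and in 4.79% of 32851 such windows of the genome. The broader form (GGG, any 5 bases and CC), which includes the stricter one, also occurred in all 5 windows, but 50.8% of all windows hold it. Cxcl1, Cxcl2 and Cxcl3 had the same 10 bases, GGGAATTTCC, on the strand of the gene, starting 71, 97 and 73 bases before the start. Cxcl1 and Cxcl2 each had a further match to the stricter form, which in Cxcl1 was on the opposite strand. The ISRE motif was found only in the window of Cxcl10, from 213 to 204 bases before the start, and in 3.44% of all windows. The AP-1 motif was found in the windows of Cxcl10, from 74 to 68 bases before the start, and of Cxcl9, after the start, and in 7.81% of all windows. TATAAA was found in Cxcl3, from 30 to 25 bases before the start, and in Cxcl9, from 195 to 190 bases before it, and in 13.6% of all windows. The GAS motif TTCNNNGAA was in none of the 5 windows and in 8.3% of all windows. A match is a description of the letters and not of a bound site.

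**Figure D1:**
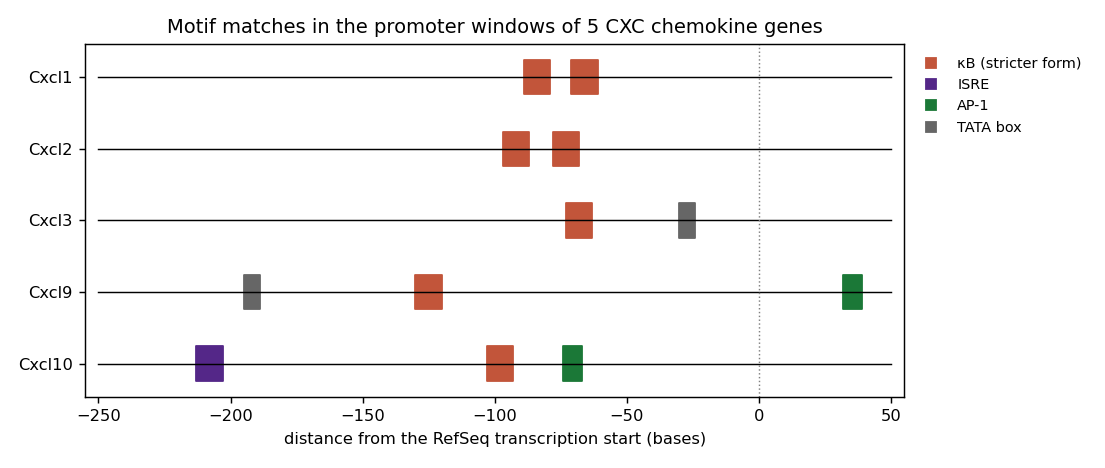
Motif matches by distance in bases from the RefSeq transcription start (dotted line) for the 5 genes with a promoter window, each black line being 1 window and each block 1 match. The stricter κB matches lie in the 130 bases before the start in all 5 genes, and the ISRE match is in Cxcl10 only.

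LPS + MSU raised all 7 genes in both genotypes (edgeR quasi-likelihood test, adjusted p under 0.05 over all genes tested). In Ncoa6-sufficient BMDMs, 24.7% of all genes tested were called higher, 30.5% lower and 55.2% in either direction, and the median log2 fold change of the 7 genes was 7.68, against -0.12 over all genes. In Ncoa6-KO BMDMs, 25.2% were called higher, 27.9% lower and 53.1% in either direction, and the medians were 9.56 and -0.07. The groups of 2 libraries did not overlap for any of the 7 genes in either genotype, as for 78.5% and 76.5% of all genes. The p-values measure the spread between these libraries only.

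Of the neutrophil-attracting chemokines, Cxcl1 and Cxcl3 were nearly silent at rest, while Cxcl2 had a moderate level and ranked 9011 (Ncoa6-sufficient) and 9556 (Ncoa6-KO) of 17587 genes per kilobase. With medium alone, Cxcl1 had normalized counts of 13.5 and 15.5 in Ncoa6-sufficient and 13.9 and 18.4 in Ncoa6-KO libraries. After LPS + MSU, the counts of Cxcl1 were 644 and 1395 in Ncoa6-sufficient BMDMs and 1443 and 3007 in Ncoa6-KO BMDMs. Its stimulated counts were higher in the Ncoa6-KO libraries, but the higher Ncoa6-sufficient library (library 2) and the lower Ncoa6-KO library (library 1) lay close together. The log2 fold change on stimulation was 6.13 ± 0.532 (adjusted p = 1.90e-06) in Ncoa6-sufficient BMDMs and 7.11 ± 0.517 (adjusted p = 4.73e-07) in Ncoa6-KO BMDMs.

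Cxcl2 was the most abundant of the neutrophil chemokines in all groups, also per kilobase of transcript. With medium alone, its normalized counts were 125 and 146 in Ncoa6-sufficient and 100.8 and 104 in Ncoa6-KO libraries. After LPS + MSU, they were 19329 and 26353 in Ncoa6-sufficient and 23917 and 33914 in Ncoa6-KO BMDMs, and these ranges overlapped. Cxcl2 rose by 7.40 ± 0.242 (log2, adjusted p = 1.31e-09) and 8.14 ± 0.250 (adjusted p = 8.72e-10), a fold of 169 and of 282.

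With medium alone, Cxcl3 had raw counts of 5 and 6 in Ncoa6-sufficient and 3 and 4 in Ncoa6-KO libraries, which are normalized counts between 2.09 and 5.16. After LPS + MSU, its normalized counts were 680 and 1179 in Ncoa6-sufficient BMDMs and 1519 and 2776 in Ncoa6-KO BMDMs. The stimulated groups did not overlap, as for 47.4% of all genes. With so few resting counts the size of the rise was uncertain: the ratio of stimulated to resting counts was 211 in Ncoa6-sufficient BMDMs (95% exact interval 118 to 424) and 783 in Ncoa6-KO BMDMs (379 to 1948), and these intervals cover counting error only. Exons of Cxcl2 and Cxcl3 share few long stretches, with 3.05% and 1.88% of their 100-base windows in common. Because Cxcl2 was far more abundant, 3.05% of its stimulated counts would be 1010 with Ncoa6 and 1299 without it, against 1347 and 3146 counts of Cxcl3. The counts are expected counts from RSEM, and both genes had fractional values in all stimulated libraries. In stimulated Ncoa6-sufficient library 1, for example, they were 13951.96 for Cxcl2 and 491.04 for Cxcl3. Some reads were thus divided between genes by estimate, and 1010 and 1299 do not measure Cxcl2 reads counted as Cxcl3. The accuracy of this division was not tested, so the level and differences of Cxcl3 remain uncertain to an unknown extent.

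The fitted rises of the interferon-inducible chemokines were larger than those of the neutrophil chemokines. On the log2 scale they were 9.28 to 11.38 against 6.13 to 7.68 in Ncoa6-sufficient and 10.02 to 11.85 against 7.11 to 9.56 in Ncoa6-KO BMDMs. This comparison was not itself tested, and Cxcl3, Cxcl9 and Cxcl11 had few resting counts. In Ncoa6-sufficient BMDMs, the 95% exact intervals of the count ratio overlapped between Cxcl11 (341 to 3212) and Cxcl3 (118 to 424). In Ncoa6-KO BMDMs, the interval of Cxcl3 (379 to 1948) overlapped those of Cxcl9 (1416 to 20083), Cxcl10 (1569 to 2035) and Cxcl11 (332 to 9932). With medium alone, Cxcl9 had raw counts of 6 and 5 in Ncoa6-sufficient and 3 and 0 in Ncoa6-KO libraries. After LPS + MSU, its normalized counts were 17361 and 6802 in Ncoa6-sufficient and 6317 and 3217 in Ncoa6-KO BMDMs. The libraries of a group were far apart here, and the lower Ncoa6-sufficient library (library 2) lay close to the higher Ncoa6-KO library (library 1). The ratio of stimulated to resting counts of Cxcl9 was 2737 (95% exact interval 1529 to 5483) in Ncoa6-sufficient and 4141 (1416 to 20083) in Ncoa6-KO BMDMs.

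At rest, Cxcl10 had normalized counts of 250 and 330 in Ncoa6-sufficient and 93.2 and 88.7 in Ncoa6-KO libraries. After LPS + MSU, its counts were 191127 and 169104 in Ncoa6-sufficient and 166333 and 158490 in Ncoa6-KO BMDMs. The resting groups were far apart while the stimulated groups nearly met. Cxcl10 rose by 9.28 ± 0.206 (log2, adjusted p = 2.67e-10) in Ncoa6-sufficient and by 10.80 ± 0.222 (adjusted p = 1.73e-10) in Ncoa6-KO BMDMs, which is a fold of 622 and of 1782. Per kilobase of its longest coding transcript, Cxcl10 ranked 17 of 17587 genes after LPS + MSU in both genotypes, from 5804 in resting Ncoa6-sufficient and 9154 in resting Ncoa6-KO BMDMs. Art3, a gene on the opposite strand, shares 5.91% of the exon bases of Cxcl10 and had 0 to 51 raw counts.

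At rest, Cxcl11 had raw counts of 1 and 3 in Ncoa6-sufficient and 1 and 1 in Ncoa6-KO libraries. After LPS + MSU, its normalized counts were 1595 and 1211 in Ncoa6-sufficient and 806 and 1068 in Ncoa6-KO BMDMs. The ratio of stimulated to resting counts was 874 (95% exact interval 341 to 3212) and 1202 (332 to 9932) in turn. An antisense pseudogene, Gm2673, overlaps 41.7% of the exon bases of Cxcl11 and had no count in any library.

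Cxcl16 was the only gene of the 7 that was abundant at rest. Its resting counts were 3038 and 2391 in Ncoa6-sufficient and 1668 and 985 in Ncoa6-KO libraries, and they were 15334 and 13547 against 13150 and 10615 after LPS + MSU. In both conditions both Ncoa6-KO libraries lay below both Ncoa6-sufficient libraries. Genotypes did not overlap, in either direction, for 43.1% of all genes at rest and 47.4% after LPS + MSU. Cxcl16 rose by 2.41 ± 0.222 (log2, adjusted p = 3.05e-06) in Ncoa6-sufficient and by 3.16 ± 0.230 (adjusted p = 4.69e-07) in Ncoa6-KO BMDMs, the smallest rise of the 7 genes in both genotypes. The antisense neighbour Zmynd15 shares 18.3% of the exon bases of Cxcl16 and had 49.97 to 557 raw counts. The libraries were stranded, but the strand setting of the counting is not given in the sources used here.

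**Figure D2:**
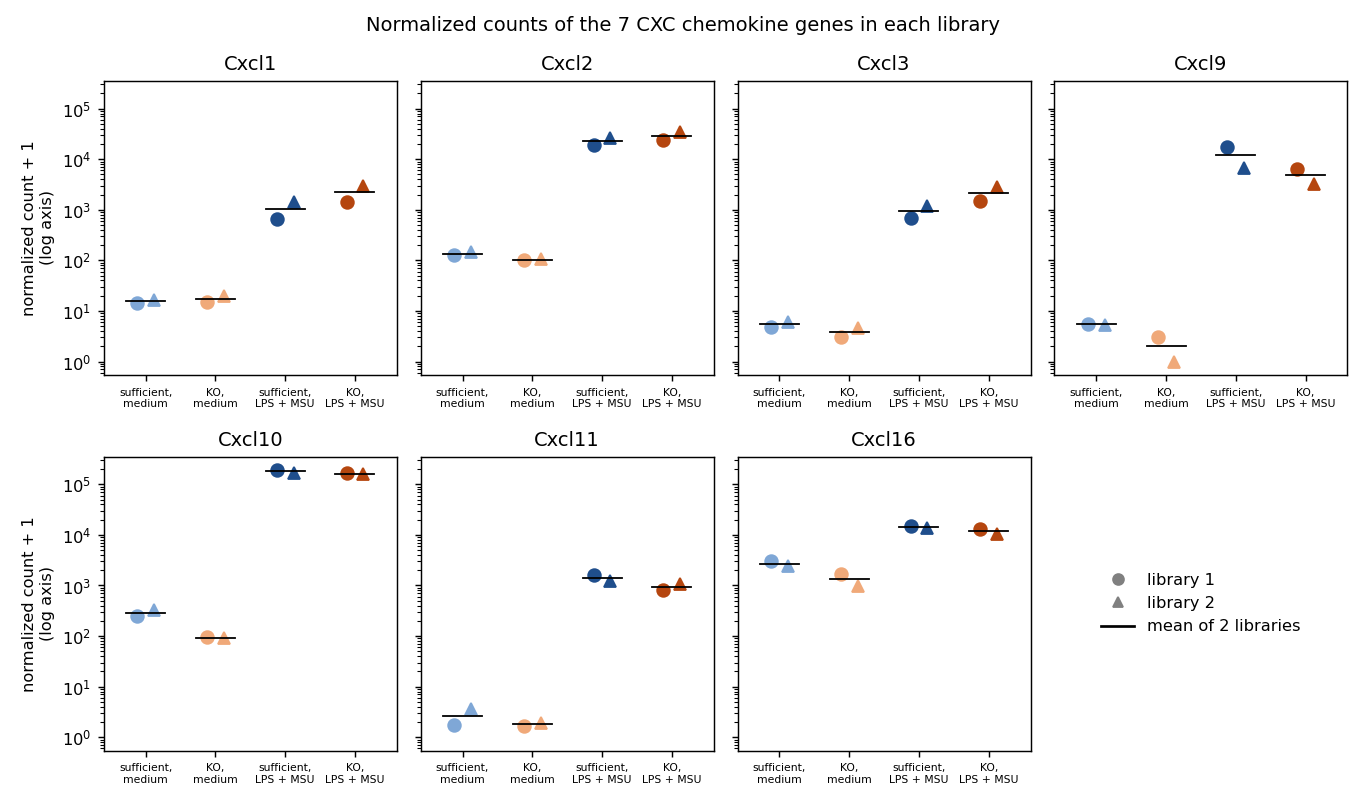
Normalized count plus 1 (log axis) of each of the 7 genes in each of the 8 libraries, with circles for library 1, triangles for library 2 and a black line at the mean of the 2 libraries of a group. All stimulated libraries lie above all resting libraries for each gene, and the gap is narrowest for Cxcl16.

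The stimulus changed which chemokine dominated. Per kilobase of the longest coding transcript, the order in resting Ncoa6-sufficient BMDMs was Cxcl16 (1006 normalized counts per kilobase), Cxcl10 (214), Cxcl2 (72.8), Cxcl1 (15.2), Cxcl3 (4.39), Cxcl9 (1.52) and Cxcl11 (1.05), in which the ranges of only the last pair overlapped. After LPS + MSU, the order in Ncoa6-sufficient BMDMs was Cxcl10 (133123), Cxcl2 (12287), Cxcl16 (5350), Cxcl9 (4182), Cxcl1 (1070), Cxcl3 (915) and Cxcl11 (887), with overlap between Cxcl16 and Cxcl9 and among the last 3 genes. In stimulated Ncoa6-KO BMDMs, the order was Cxcl10 (120038), Cxcl2 (15554), Cxcl16 (4403), Cxcl1 (2334), Cxcl3 (2113), Cxcl9 (1650) and Cxcl11 (593), with overlap among Cxcl1, Cxcl3 and Cxcl9. With all annotated exon bases as the length, Cxcl9 stood in place 4 in stimulated Ncoa6-KO BMDMs, and Cxcl11 came before Cxcl3 in stimulated Ncoa6-sufficient BMDMs.

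As shares of the summed counts of the 7 genes, Cxcl16 made up 88.4% and 82.6% in resting Ncoa6-sufficient and 88.7% and 82.0% in resting Ncoa6-KO libraries. After LPS + MSU, Cxcl10 made up 77.7% and 77.0% in Ncoa6-sufficient and 77.9% and 74.4% in Ncoa6-KO libraries. Shares of Cxcl2 were 7.86% and 12.0% in stimulated Ncoa6-sufficient and 11.2% and 15.9% in stimulated Ncoa6-KO libraries. Shares of Cxcl9 were 7.06% and 3.10% against 2.96% and 1.51%. The 7 genes together took 0.0123% to 0.0144% of the counts of resting Ncoa6-sufficient libraries, 0.00526% to 0.00803% of resting Ncoa6-KO libraries, and 0.587% to 0.642% of all stimulated libraries.

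**Figure D3:**
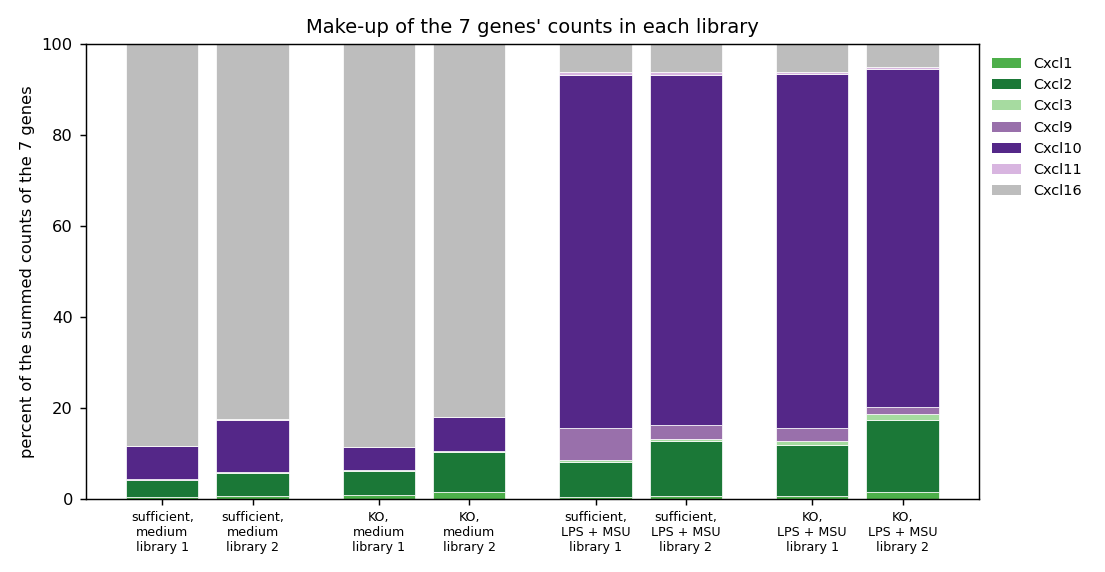
Percent of the summed counts of the 7 genes that each gene took, with 1 bar per library. Cxcl16 takes over 82% of every resting bar and Cxcl10 over 74% of every stimulated bar.

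With medium alone, Ncoa6-KO BMDMs had less Cxcl10 and less Cxcl16 than Ncoa6-sufficient BMDMs. These were the 2 of 7 genes called lower, where 1.3% of all genes tested were called lower and 1.88% in either direction, and none was called higher (0.573% of all genes). Cxcl10 fell by 1.67 ± 0.176 on the log2 scale (edgeR, adjusted p = 0.00205), which is 3.18-fold lower and ranked 13 of 17625 genes by p. The median log2 fold change of the 7 genes was -0.94, against -0.03 over all genes. That median is the value of Cxcl11 (-0.94 ± 1.21, edgeR, adjusted p = 0.835), which had 4 counts in the Ncoa6-sufficient and 2 in the Ncoa6-KO libraries. It therefore does not measure a fall of the 7 genes as a group. The groups did not overlap for 5 of the 7 genes, against 43.1% of all genes.

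The Cxcl10 difference was called in each of 17 alternative analyses, between -1.86 and -1.45 with each library left out in turn, and its highest adjusted p was 0.0192. Cxcl16 fell by 1.03 ± 0.216 on the log2 scale (edgeR, adjusted p = 0.0412), 2.04-fold lower. That call rested on individual libraries. Without Ncoa6-KO resting library 2, the one with the lowest count, the value was -0.70 (adjusted p = 0.128), and without Ncoa6-sufficient resting library 1 it was -0.85 (adjusted p = 0.411). Without Ncoa6-sufficient resting library 2 it was -1.19 (adjusted p = 0.0919), without Ncoa6-sufficient stimulated library 1 or 2 it was -0.995 (adjusted p = 0.0609 and 0.0633), and without Ncoa6-KO stimulated library 1 or 2 it was also -0.995 (adjusted p = 0.0566 and 0.0606). Without Ncoa6-KO resting library 1 it was -1.46 (adjusted p = 0.00424). The call was also missed with another filter on low counts (-1.02, adjusted p = 0.0540) and with only the 4 resting libraries (-1.01, adjusted p = 0.0618).

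The other 5 genes did not differ detectably between resting genotypes. Cxcl2 differed by -0.40 ± 0.232 (adjusted p = 0.544) and Cxcl1 by 0.14 ± 0.874 (adjusted p = 0.982). Cxcl3, Cxcl9 and Cxcl11 had too few counts for a difference of this size to be detectable. Cxcl9, for example, had 11 counts in the Ncoa6-sufficient and 3 in the Ncoa6-KO libraries, a ratio of 3.79 (95% exact interval 1.00 to 21.1), and Cxcl11 had 4 against 2.

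After LPS + MSU, Cxcl3 was called between the genotypes in the edgeR fit without a replicate term, and the number of chemokines called by other fits ranged from 0 to 5. The fitted log2 fold changes of Ncoa6-KO over Ncoa6-sufficient BMDMs were above 0 for Cxcl1, Cxcl2 and Cxcl3 and below 0 for Cxcl9, Cxcl10, Cxcl11 and Cxcl16. Thus 1 of 7 genes was called higher, where 1.96% of all genes tested were, and none was called lower (1.63%), with 3.59% called in either direction. The median log2 fold change of the 7 genes was -0.15 against 0.00 over all genes. The groups did not overlap for 6 of the 7 genes, Cxcl2 being the exception, against 47.4% of all genes.

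Cxcl3 was higher in stimulated Ncoa6-KO BMDMs by 1.21 ± 0.271 (log2, edgeR, adjusted p = 0.0370), or 2.31-fold. This count shares windows with Cxcl2, as given above. Its mean normalized count was 2147 ± 889 (SD, n = 2) against 930 ± 353 in Ncoa6-sufficient BMDMs. The call depended on the libraries. Without Ncoa6-sufficient stimulated library 1 the value was 0.85 (adjusted p = 0.270), and without Ncoa6-KO stimulated library 2 it was 0.70 (adjusted p = 0.325). Without Ncoa6-sufficient resting library 1 or 2 the value stayed at 1.21, with adjusted p = 0.0754 and 0.0736. It was 1.19 (adjusted p = 0.0517) with limma-voom and 1.21 (adjusted p = 0.0978) with only the 4 stimulated libraries.

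Cxcl1, the neighbour of Cxcl3 in the same cluster, had a stimulated log2 fold change of 1.12 ± 0.342 (adjusted p = 0.110), with means of 2225 ± 1106 against 1020 ± 531 normalized counts (SD, n = 2). Its value ranged from 0.50 without Ncoa6-KO stimulated library 2 (adjusted p = 0.640) to 1.77 without Ncoa6-sufficient stimulated library 2 (adjusted p = 0.0323), and it was 1.54 without Ncoa6-KO stimulated library 1 (adjusted p = 0.0367). Cxcl2 had a value of 0.34 ± 0.177 (adjusted p = 0.363).

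Cxcl9 had a stimulated log2 fold change of -1.34 ± 0.377 (adjusted p = 0.0861), with a mean of 4767 ± 2193 in Ncoa6-KO against 12081 ± 7466 normalized counts in Ncoa6-sufficient BMDMs (SD, n = 2). It was -0.52 (adjusted p = 0.593) without Ncoa6-sufficient stimulated library 1, the library with the highest count, and -1.87 (adjusted p = 0.0146) without Ncoa6-sufficient stimulated library 2. Cxcl11 had a value of -0.58 ± 0.160 (edgeR, adjusted p = 0.0789), which DESeq2 called lower (-0.62, adjusted p = 0.0346). Without Ncoa6-sufficient stimulated library 2, edgeR also called it (-0.78, adjusted p = 0.0429). Cxcl10 (-0.15 ± 0.143, adjusted p = 0.657) and Cxcl16 (-0.28 ± 0.210, adjusted p = 0.552) had smaller values, and the call of neither moved with any library left out.

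**Figure D4:**
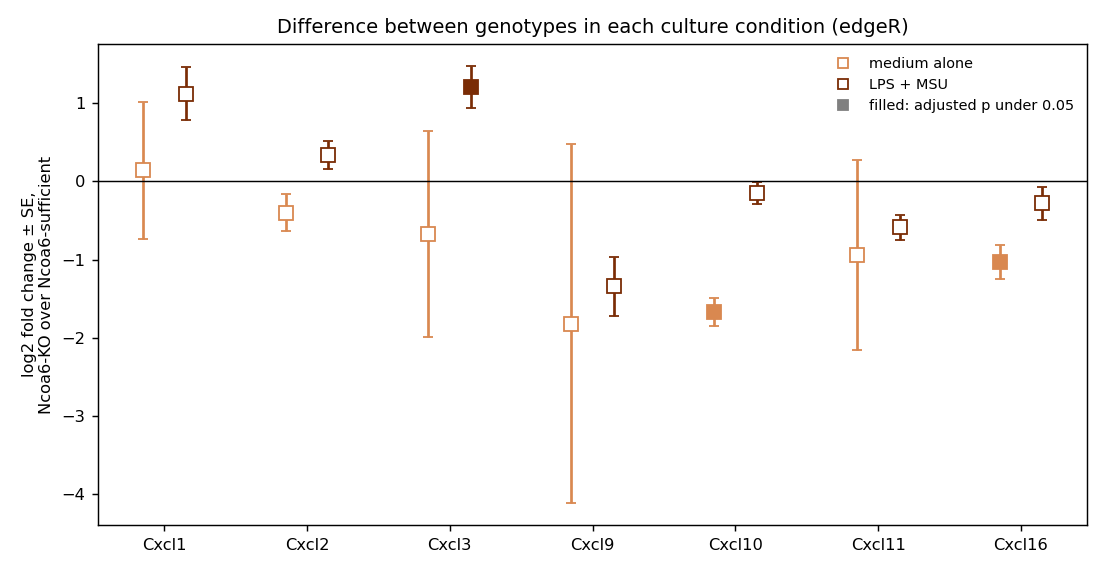
Fitted log2 fold change of Ncoa6-KO over Ncoa6-sufficient BMDMs with its standard error for each of the 7 genes, with medium alone (light) and after LPS + MSU (dark), filled where the adjusted p was under 0.05. Cxcl10 and Cxcl16 are filled below 0 with medium alone, and Cxcl3 is filled above 0 after LPS + MSU.

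The libraries within a stimulated group also differed from each other by chemokine. In both genotypes, library 1 had fewer counts of Cxcl1, Cxcl2 and Cxcl3 than library 2 and more counts of Cxcl9, Cxcl10 and Cxcl16. Cxcl11 was higher in library 1 in Ncoa6-sufficient BMDMs and lower in library 1 in Ncoa6-KO BMDMs. The log2 ratio of Cxcl9 to Cxcl1 within a library, which does not depend on the scaling, was 4.75 and 2.29 in stimulated Ncoa6-sufficient and 2.13 and 0.10 in stimulated Ncoa6-KO libraries. The libraries of a group were far apart, and the nearest libraries of the genotypes, at 2.29 and 2.13, almost met. These nearest libraries carry different numbers. Between libraries of the same number, the values were 4.75 against 2.13 and 2.29 against 0.10. The labels do not say that equal numbers mark a shared mouse or day. The log2 ratio of Cxcl3 to Cxcl1 was near 0 in all 4 stimulated libraries, between -0.24 and 0.08.

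**Figure D5:**
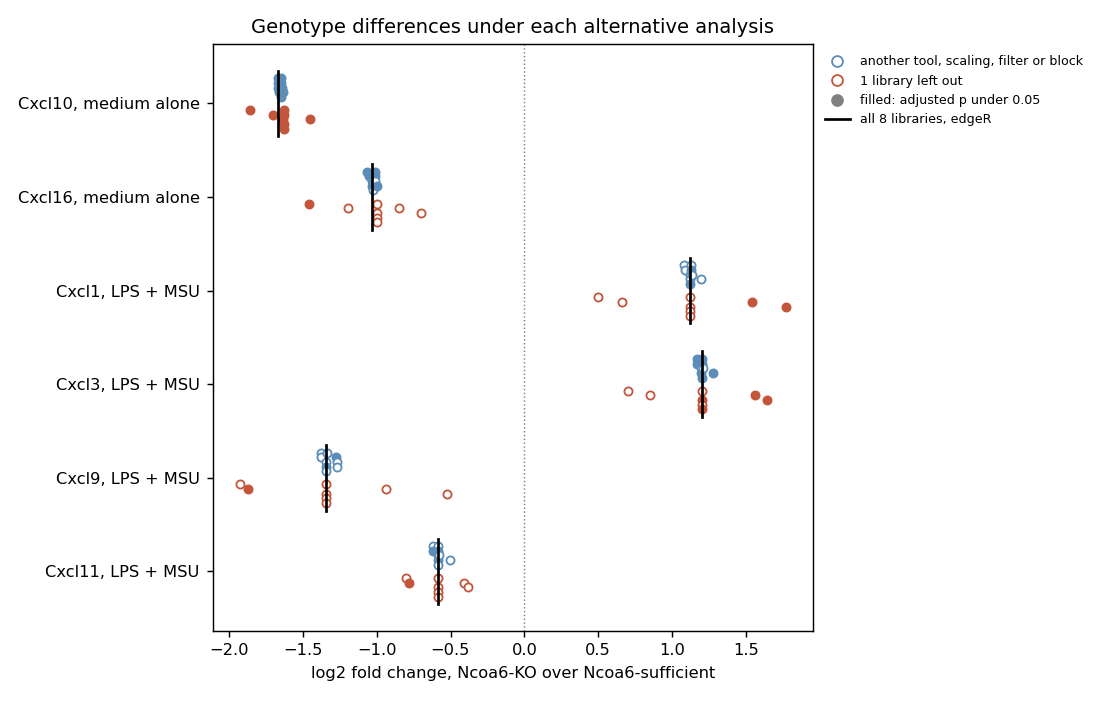
Fitted log2 fold change of Ncoa6-KO over Ncoa6-sufficient BMDMs for 6 gene and condition pairs, with the value from all 8 libraries as a black line, other tools, scalings, filters and blocks in blue and single libraries left out in red, filled where the adjusted p was under 0.05. Cxcl10 with medium alone is filled throughout, whereas for the other 5 pairs the call moves with the setting or the library.

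The interaction between genotype and stimulus asked whether the difference between genotypes changed with LPS + MSU. No gene of 17625 was called by the main edgeR fit (percent called 0), while 1045 had an unadjusted p under 0.05 and DESeq2 called 43. Of the 7 chemokines, 3 had an unadjusted p under 0.05, all with a larger rise in Ncoa6-KO BMDMs. Cxcl10 had an interaction of 1.52 ± 0.227 on the log2 scale (edgeR, adjusted p = 0.220) and ranked 3 of 17625 genes by p. DESeq2 called it (1.46, adjusted p = 2.92e-08). Cxcl2 (0.74 ± 0.291, adjusted p = 0.782) and Cxcl16 (0.75 ± 0.300, adjusted p = 0.799) were not called by the main edgeR fit or by DESeq2. Without a filter on low counts, edgeR called both (adjusted p = 0.0230 and 0.00160 in turn). The genotype difference in Cxcl10 was thus -1.67 with medium alone and -0.15 after LPS + MSU. The resting difference and the rise in each genotype rest on the same resting libraries and are not independent of each other.

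Other CXC ligands were few in these cells. Of 8 listed, 5 were tested and 2 were lower in resting Ncoa6-KO BMDMs, none after LPS + MSU. Of all genes tested, 1.3% were called lower at rest and 1.63% after LPS + MSU. Cxcl14, a constitutive homeostatic chemokine, had 760 and 692 normalized counts in resting Ncoa6-sufficient and 481 and 496 in resting Ncoa6-KO BMDMs (-0.57, adjusted p = 0.0298). Pf4 (Cxcl4), known from platelet granules, had 1765 and 1221 against 895 and 780 (-0.83, adjusted p = 0.0430). For both genes the resting groups did not overlap, as for 43.1% of all genes. Cxcl14 and Pf4 differed after LPS + MSU by -0.32 (adjusted p = 0.184) and -0.60 (adjusted p = 0.103).

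Of 8 listed CXC chemokine receptors, 6 were tested, and none was called between genotypes in either condition. Only Cxcr3 and Cxcr4 reached a mean of 50 normalized counts. Cxcr3, the receptor of Cxcl9, Cxcl10 and Cxcl11, fell from 365 and 405 to 88.7 and 97.8 normalized counts in Ncoa6-sufficient BMDMs (-2.04, adjusted p = 9.08e-07) and from 309 and 260 to 95.4 and 79.7 in Ncoa6-KO BMDMs (-1.70, adjusted p = 4.99e-06). Cxcr4, the receptor of Cxcl12, fell from 2900 and 2820 to 52.6 and 41.3 in Ncoa6-sufficient BMDMs (-5.92, adjusted p = 1.00e-09) and from 4250 and 3286 to 70.6 and 56.0 in Ncoa6-KO BMDMs (-5.89, adjusted p = 7.08e-10). The receptor of the neutrophil chemokines, Cxcr2, had at most 2.78 normalized counts in a library.

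Genes upstream of the chemokines were compared as lists. Of 24 genes of Toll-like receptor 4 and NF-κB signalling, 18 rose and 3 fell with LPS + MSU in each genotype. Of all genes tested, 24.7% were called higher and 30.5% lower in Ncoa6-sufficient BMDMs, and 25.2% and 27.9% in Ncoa6-KO BMDMs. Against 1.3% of all genes tested, 2 of the 24 were lower in resting Ncoa6-KO BMDMs. These were the LPS co-receptor Cd14 (8612 and 7115 against 5228 and 3937 normalized counts, -0.78, adjusted p = 0.0298) and Nfkbie, an inhibitor of NF-κB (341 and 338 against 235 and 227, -0.55, adjusted p = 0.0209). Of the same 24 genes, none was called between genotypes after LPS + MSU.

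Of 24 genes of interferon production and signalling, 23 were tested. With LPS + MSU, 20 rose and 3 fell in Ncoa6-sufficient BMDMs, and 18 rose and 3 fell in Ncoa6-KO BMDMs. The shares of all genes tested are those given for the list above. With medium alone, where 1.3% of all genes tested were called lower, 3 were lower in Ncoa6-KO BMDMs. Irf7, a transcription factor for type I interferon genes, had 2857 and 2281 against 1101 and 680 normalized counts (-1.53 ± 0.201, adjusted p = 0.00568). Stat2, a subunit of the complex that binds the ISRE, differed by -0.72 (adjusted p = 0.0464), and Usp18, an interferon-induced inhibitor of the type I interferon receptor, by -0.90 (adjusted p = 0.0250). After LPS + MSU none of the 23 was called, and Irf7 differed by -0.39 (adjusted p = 0.3334). The median log2 fold change of the list between resting genotypes was -0.24 against -0.03 over all genes. Ifnb1 and Ifng were chosen after their values were seen. Ifnb1 had 334 and 253 normalized counts in stimulated Ncoa6-sufficient and 204 and 157 in stimulated Ncoa6-KO BMDMs (-0.70, adjusted p = 0.0867). Ifng, the classical inducer of Cxcl9, had no count in 7 of the 8 libraries and 1.31 normalized counts in the other.

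Of 11 factors known for controlling the stability of chemokine mRNA, 1 was called between genotypes. It was lower after LPS + MSU, where 1.63% of all genes tested were called lower. Zfp36 (tristetraprolin), which promotes the decay of AU-rich mRNAs such as those of the neutrophil chemokines, had 24752 and 17220 normalized counts in stimulated Ncoa6-sufficient BMDMs and 12180 and 11653 in stimulated Ncoa6-KO BMDMs. The groups did not overlap, as for 47.4% of all genes, and the log2 fold change was -0.82 ± 0.147 (adjusted p = 0.0155). With medium alone it was -0.48 (adjusted p = 0.168). Of 9 proteases known to cleave chemokines, the cathepsin gene Ctsk was higher in Ncoa6-KO BMDMs in both conditions (0.68, adjusted p = 0.0213, and 0.80, adjusted p = 0.00901). The gelatinase gene Mmp9 was lower with medium alone (-0.67, adjusted p = 0.0245). Of all genes tested, 0.573% were called higher and 1.3% lower with medium alone, and 1.96% were called higher after LPS + MSU. Adam10 and Adam17 were not called between genotypes in either condition.

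The genes whose profile over the 8 libraries was nearest to each chemokine were found by the root mean square distance between centred log2 profiles, among the 11218 genes whose mean reached 50 normalized counts. Nearest to Cxcl1 were Ccl17 (distance 0.48), Tmem132e (0.50) and Cx3cl1 (0.51), and nearest to Cxcl2 were Heatr9 (0.26), Shisa3 (0.33) and Cxcl3 (0.36). Cxcl3 had Cxcl2, Shisa3 (0.47) and Heatr9 (0.55) as its nearest genes. For Cxcl9 they were Il27 (0.47), Ccl5 (0.49) and Il1b (0.49), and for Cxcl10 Cd69 (0.34), Il27 (0.46) and Ccl5 (0.50). For Cxcl11 they were Adora2a (0.38), Hdc (0.42) and Acod1 (0.44). Cxcl16 had Oas2 (0.15), Epsti1 (0.15) and Dhx58 (0.17), all of which are known as interferon-stimulated genes. The distances cover all 8 libraries and so include the response to LPS + MSU. Cxcl11 lay nearer to Cxcl2 (0.56) than to Cxcl9 (1.27) or Cxcl10 (0.92). By fitted rise, Cxcl11 (log2 9.66 with and 10.02 without Ncoa6) was nearer to Cxcl10 (9.28 and 10.80) than to Cxcl2 (7.40 and 8.14). The profiles hold a prior count of 2, and Cxcl11 had at most 3 counts in a resting library. Its distances therefore depend on that setting, and how far was not tested.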

How the data were processed

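Poly(A) RNA of 8 BMDM libraries was sequenced by the authors from stranded libraries as read pairs of 100 bases each. The submitters' processing notes name STAR 2.7.3a, RSEM 1.3.3, DESeq2 and GRCm38. The deposited values are expected counts per gene, estimated by the authors and not normalized, for 50615 genes, of which 50295 had a symbol. The strand setting of the counting is not given in the sources used here.

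Values were rounded, and the 17625 genes with at least 10 counts over all libraries were kept. The 4 groups were fitted in 1 quasi-likelihood model with edgeR 4.0.16 in R 4.3.3 after TMM scaling, with 4 residual degrees of freedom. The call threshold was an adjusted p-value (Benjamini-Hochberg) of 0.05. In a design of 2 libraries against 2, the smallest exact permutation p is 0.333, so all p-values come from models across all genes. SE is the log2 fold change divided by the square root of the F statistic. Library totals ranged from 25281955 to 33673552, and TMM factors from 0.766 to 1.29. Replicates of a group correlated at 0.987 to 0.992 over genes, and their counts differed by more than sampling noise. On simulated data for medium alone, the fit recovered 89% of 200 changed genes, with 20 false calls among 17183 genes. For LPS + MSU, it recovered 83% of 200, with 21 false calls among 17225 genes. In both conditions, false calls made up a larger share of all calls than the threshold of 0.05.

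The 7 genes, the pathway and marker lists and the tests were chosen with earlier results of these data known. Text names were limited to the 7 genes, Ncoa6, list genes called between genotypes or in the interaction, receptors and other CXC ligands with a group mean of at least 50 normalized counts, and the 3 nearest profiles of each chemokine (log2 CPM with a prior count of 2). Other names are stated as such or are markers and overlapping genes. GENCODE (GRCm38) gave positions and lengths, and RefSeq gave promoters. Protein sequences were not analysed here. Alternatives were DESeq2 1.42.0, limma 3.58.1 (voom), DESeq2 size factors, other filters, replicate blocks, fits of the compared groups only, a fold threshold, each library left out and, chosen after seeing the data, scaling by library totals.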

Additional observations from a re-analysis of the deposited data

Results flagged for a closer look

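The fitted difference between genotypes in Cxcl3 had opposite directions in the culture conditions. Both Ncoa6-KO libraries lay below both Ncoa6-sufficient libraries with medium alone (raw counts of 3 and 4 against 5 and 6), and both lay above them after LPS + MSU. Genotypes did not overlap, in either direction, for 43.1% of all genes with medium alone and 47.4% after LPS + MSU. The interaction was 1.88 on the log2 scale (edgeR, adjusted p = 0.919), which did not pass the threshold at these low resting counts. Cxcl10 and Cxcl16 were called with medium alone only, and the interaction of neither passed the threshold in the main edgeR fit.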

How the results depend on the processing

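Of 608 values of the 7 genes in the alternatives, 567 kept their direction and their side of the threshold, 35 kept their direction with another call and 6 changed sign. All values of the rise with LPS + MSU kept direction and call. They are part of the 567, which thus does not describe the genotype differences and the interaction alone. The fold threshold was applied to the main fit, so it could move a call but not a direction. The 6 sign changes were of values not called, each with 1 library left out. Between resting genotypes, Cxcl1 ranged from -0.053 (without Ncoa6-KO resting library 2) to 0.35 and Cxcl11 from -1.58 to 0.042 (without Ncoa6-sufficient resting library 2). The interaction of Cxcl9 ranged from -0.31 (without Ncoa6-KO resting library 2) to 3.75, with -0.089 and -0.14 without Ncoa6-sufficient stimulated library 2 and Ncoa6-KO stimulated library 1, and that of Cxcl11 from -0.63 (without Ncoa6-sufficient resting library 2) to 1.00. With medium alone, 1 chemokine in place of 2 was called with filterByExpr and with only the 4 libraries compared, and 1 to 2 with a library left out. After LPS + MSU, 2 in place of 1 were called with DESeq2, 4 without a filter, 0 with limma-voom or a fit of only the 4 libraries, and 0 to 4 with a library left out. In the interaction, DESeq2 called 1 (Cxcl10) and no filter 3 (Cxcl2, Cxcl10 and Cxcl16).

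Over all genes, no filter gave 1152 calls with medium alone in place of 331, 1611 after LPS + MSU in place of 632 and 269 in the interaction in place of 0, where DESeq2 gave 43. A fold threshold gave 147, 182, 5726 and 5339 calls for the genotypes at rest, the genotypes after LPS + MSU and the stimulus in Ncoa6-sufficient and Ncoa6-KO BMDMs. Only the 4 stimulated libraries gave 347. With a library left out, the calls were 22 to 351 with medium alone, 49 to 765 after LPS + MSU and 0 to 16 in the interaction. Scaling by library totals moved the median of all genes by -0.66 and -0.63 on stimulation (Ncoa6-sufficient and Ncoa6-KO BMDMs in turn) and by 0.07 between stimulated genotypes, and DESeq2 size factors moved it by 0.11 on stimulation in Ncoa6-sufficient BMDMs. With library totals, 2498 genes were called higher and 9653 lower in Ncoa6-sufficient BMDMs, 2540 and 9313 in those without Ncoa6, and 480 higher and 218 lower between stimulated genotypes, in place of 4362 and 5375, 4446 and 4913, and 345 and 287. Between stimulated genotypes, other scalings tilted the calls the other way, with 346 higher and 503 lower in DESeq2 and 295 and 343 with DESeq2 size factors in edgeR. The cause of these moves was not tested, other than by the construction of the filters and of the smaller fits.

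The labels do not say that equal replicate numbers mark a shared mouse or day. Deviations of same-numbered libraries correlated at 0.05 to 0.37 between groups, over 0.1 for 5 of 6 pairs of groups, and with only 2 numbers libraries were treated as unpaired. With a replicate block across all groups, 1023 genes were called with medium alone, 1532 after LPS + MSU and 86 in the interaction. Of the chemokines, 5 were then called after LPS + MSU: Cxcl1 (1.13, adjusted p = 2.04e-05), Cxcl2 (0.34, adjusted p = 0.0406) and Cxcl3 (1.20, adjusted p = 2.88e-06) higher, and Cxcl9 (-1.27, adjusted p = 5.33e-06) and Cxcl11 (-0.58, adjusted p = 0.0234) lower. In the interaction, 1 chemokine was called, Cxcl10. A block within genotype called 444 genes and 3 chemokines (Cxcl2, Cxcl10 and Cxcl16) in the interaction. It was not run for the genotype differences, since genotypes lie between such blocks.

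With 2 libraries per group, differences under about the spread between libraries could not be detected, and 3 of the chemokines had at most 6 counts in a resting library. Counting intervals cover counting error only.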
